A study of Rattus norvegicus with 4 samples.

Results

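Neurons that fire strongly switch on a small set of genes within minutes, and 9 of these were followed here across the neurons of the rat orbitofrontal cortex, a prefrontal region that tracks the value of rewards. They are Npas4, Egr1, Egr3, Egr4, Nr4a1, Nr4a2, Nr4a3, Arc and Homer1, taken by their symbols from the 25399 genes in the deposited files, and each symbol matched 1 row. Male Sprague-Dawley rats aged 8 weeks had received intraperitoneal methamphetamine (METH), a stimulant that releases dopamine, at 1 mg/kg for 7 days, or saline. Nuclei were profiled by droplet 3' RNA sequencing in 2 libraries per group, from the tissue of 4 animals per group under pentobarbital at 60 mg/kg. The labels do not say how animals map to libraries or how long after the last injection tissue was taken. The p-values therefore rest on differences between libraries of a group, part of which may be technical.

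The 9 genes act at different steps of one response. Calcium that enters a firing neuron activates kinases, which act on the transcription factors CREB and SRF already bound at the promoters of rapid-response genes. Npas4, a basic helix-loop-helix factor that answers selectively to calcium influx, the zinc-finger factors Egr1, Egr3 and Egr4 and the orphan nuclear receptors Nr4a1, Nr4a2 and Nr4a3 are themselves transcription factors. Arc and Homer1 act at synapses: Arc helps remove AMPA receptors, and Homer1 encodes scaffolds that join metabotropic glutamate receptors to calcium stores. A short form of Homer1 is induced by activity while long forms are made constantly, and all of them share 1 row of the files, so they are not told apart here. Nr4a2 has another role too. It is known from mice as a marker of neurons of the claustrum and of deep cortical layers, where it marks identity whether or not the cell was active.

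The promoters show how unevenly the binding sequences for CREB and SRF are spread over the set, so the 250 bases before the annotated start were searched in the RefSeq promoter table for the rat build GRCr8. The table holds 6 of the 9 genes; Arc, Egr3 and Nr4a3 are named only. The sequences of 4 are given, since these hold a half-site of the cAMP response element, which CREB binds, read as TGACG or its reverse complement CGTCA. Capitals mark these half-sites and, in Egr1, CArG boxes, which SRF binds; each sequence runs on the strand of its gene. The windows are Egr1 at chr18:26736828-26737077 on the plus strand, Egr4 at chr4:119607818-119608067 on the minus strand, Nr4a1 at chr7:134259888-134260137 on the plus strand and Nr4a2 at chr3:62104888-62105137 on the minus strand.
Egr1: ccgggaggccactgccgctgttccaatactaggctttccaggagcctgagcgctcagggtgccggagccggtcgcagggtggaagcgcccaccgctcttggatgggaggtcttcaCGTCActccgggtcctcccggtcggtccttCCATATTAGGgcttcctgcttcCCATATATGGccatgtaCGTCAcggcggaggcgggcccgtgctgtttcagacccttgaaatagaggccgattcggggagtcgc
Egr4: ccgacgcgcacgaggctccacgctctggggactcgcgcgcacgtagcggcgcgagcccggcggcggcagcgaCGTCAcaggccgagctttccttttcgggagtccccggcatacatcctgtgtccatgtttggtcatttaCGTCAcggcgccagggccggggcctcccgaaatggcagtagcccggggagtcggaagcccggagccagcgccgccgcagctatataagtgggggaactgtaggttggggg
Nr4a1: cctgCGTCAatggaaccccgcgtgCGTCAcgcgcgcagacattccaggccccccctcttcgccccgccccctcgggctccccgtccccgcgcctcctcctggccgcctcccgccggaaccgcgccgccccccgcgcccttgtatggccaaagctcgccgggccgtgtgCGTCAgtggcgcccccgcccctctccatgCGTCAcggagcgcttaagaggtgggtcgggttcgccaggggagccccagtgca
Nr4a2: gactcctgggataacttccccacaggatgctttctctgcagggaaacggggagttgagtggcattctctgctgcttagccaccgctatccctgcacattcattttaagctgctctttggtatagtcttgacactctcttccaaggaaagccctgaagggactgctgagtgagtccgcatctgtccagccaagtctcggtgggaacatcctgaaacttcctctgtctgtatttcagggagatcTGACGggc

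Nr4a1 holds 4 half-sites, Egr1 and Egr4 hold 2 each, and Nr4a2 holds 1, which lies 8 bases before its start. Egr1 alone holds CArG boxes, 2 of them, at 105 and 83 bases before the start. Of 33469 promoter windows of the same length in the table, 18.2% hold at least 1 half-site, 3.98% hold 2 or more, 1.5% hold a CArG box and 0.0209% hold 2 or more CArG boxes. A full element, described next, counts as 2 half-sites in the 3.98%. None of the 6 windows holds the full element TGACGTCA, which is its own reverse complement and spans both half-sites, and which 1.59% of all windows hold. Nor does any hold the EGR site GCGTGGGCG or the NR4A site AAAGGTCA on either strand, found in 0.478% and 1.24% of all windows. The windows of Npas4 and Homer1 hold none of the 5 motifs. A match describes letters in this window, not a bound site.

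The libraries held 10275 and 8933 barcodes for METH 1 and METH 2, and 18958 and 8467 for saline 1 and saline 2, with 39552954 and 37758602 UMIs, the unique molecules counted, against 44034787 and 38811323. Saline 1 stood apart. Its excitatory neuron-like nuclei had a median of 2837.5 UMIs, against 5469 and 6603 in METH 1 and METH 2 and 6380 in saline 2. An excitatory subcluster of 1966 nuclei, with 118 and 80 from METH 1 and METH 2 and 1733 and 35 from saline 1 and saline 2, was led by genes of other classes, such as Gad2 and Slc1a3, and was left out of the excitatory class. Libraries shared 23 to 69 barcodes in pairs. Of 39124 nuclei kept, 3939 and 3145 of METH 1 and METH 2 and 8096 and 3576 of saline 1 and saline 2 were excitatory neuron-like, and 1147 and 786, and 1549 and 878, were inhibitory neuron-like. Excitatory nuclei fell into 6 named subtypes and inhibitory nuclei into 4 with at least 50 nuclei in every library. The subtypes were led by known layer genes, such as Cux2 and Otof in L2/3 intratelencephalic (IT)-like, Rorb in one L4/5 IT-like group, Vat1l in L5 extratelencephalic (ET)-like, Vwc2l in L5/6 near-projecting (NP)-like, Foxp2 and Syt6 in L6 corticothalamic (CT)-like and Sulf1 in L6 IT-like nuclei. The 9 genes and other activity-induced genes were kept out of the clustering. Levels below are in CPM, the standard scaling of a gene's UMIs by all UMIs of the same nuclei summed in a library, and are compared within a gene, not between genes.

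Activity genes were not spread evenly over the cortex, and the subtype with the highest level depended on the gene. L6 CT-like nuclei ranked first of the 10 subtypes for Npas4, Egr1, Nr4a1, Arc and Homer1, by the mean of the 4 libraries. L4/5 IT-like nuclei led for Egr3, L5 ET-like nuclei for Egr4, L5/6 NP-like nuclei for Nr4a3 and L6 IT-like nuclei for Nr4a2. Pvalb-like interneurons, fast-spiking cells that control the timing of excitatory output, were the lowest subtype for Npas4, Egr1, Nr4a1 and Arc. For Egr1, Nr4a1 and Arc the Pvalb-like mean was below or within the range of oligodendrocyte-like nuclei, so this rank is limited by that level. The Nr4a1 means of Pvalb- and Lamp5-like nuclei, 5.36 and 11.3 CPM, both lie within that range. Interneurons were not below every excitatory subtype: Egr1 averaged 27.6 CPM in Vip-like nuclei, against 25.0, 24.6 and 14.3 CPM in L6 IT-, L2/3 IT- and L5/6 NP-like nuclei, and the mean of Vip-like nuclei was also above that of L5/6 NP-like nuclei for Npas4 and Nr4a1. For Egr1 these excitatory means lie within the range of oligodendrocyte-like nuclei, read below as background. So do both saline values of Vip-like nuclei, whose libraries ran from 17.8 to 43.0 CPM. The order for Egr1 is limited by that level. These levels describe the subtypes, whose 4 libraries are shared, and carry no test.

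Among the transcription factors, Npas4 averaged 17.9 ± 6.63 CPM in L6 CT-like and 13.2 CPM in L4/5 IT-like nuclei (SD, n = 4 libraries, METH and saline together), and 0.233 CPM in Pvalb-like nuclei. Every library of L4/5 IT-like nuclei exceeded every library of the next subtype, L5 ET-like nuclei at 7.93 CPM. Egr1, the most studied of the zinc-finger factors, averaged 67.4 ± 17.5 CPM in L6 CT-like and 52.9 ± 10.2 CPM in L4/5 IT-like nuclei. These subtypes overlapped each other, while L4/5 IT-like nuclei did not overlap L5 ET-like nuclei, next at 32.7 CPM. Egr4 was highest in L5 ET-like nuclei at 26.2 ± 7.10 CPM, and the 5 leading excitatory subtypes, down to L6 IT-like nuclei at 14.4 CPM, overlapped as neighbours. All of these stood above L5/6 NP-like nuclei, at 4.62 CPM. Egr3 was the sparsest, with 348 UMIs in all nuclei kept. It averaged 4.07 CPM in L4/5 IT-like nuclei and had no UMI in Pvalb-, Vip- or Lamp5-like nuclei.

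The nuclear receptors differed from one another. Nr4a1 averaged 86.7 ± 3.90 CPM in L6 CT-like, 80.6 CPM in L4/5 IT-like and 74.3 CPM in L5 ET-like nuclei. These overlapped, and all libraries of all 3 exceeded those of L2/3 IT-like nuclei, next at 46.5 CPM. Nr4a3 was highest in L5/6 NP-like nuclei, at 108 ± 35.1 CPM, although the other 8 genes had their lowest excitatory mean there. L6 IT-like nuclei followed for Nr4a3 at 87.1 ± 38.0 CPM. Both ranges were wide, and saline 1 was the highest library in each. Nr4a2 averaged 15.0 ± 3.19 CPM in L6 IT-like and 7.62 ± 5.17 CPM in L6 CT-like nuclei, and each subtype overlapped its neighbour in the order down to Sst-like nuclei at 0.219 CPM.

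Arc, a synaptic effector, averaged 42.7 ± 3.74 CPM in L6 CT-like and 26.0 ± 3.07 CPM in L4/5 IT-like nuclei. Neither range overlapped that of the next subtype. L5 ET-, L6 IT- and L2/3 IT-like nuclei, at 14.1, 13.1 and 12.5 CPM, followed and overlapped as neighbours. Arc in the 4 interneuron subtypes, at 2.52 to 4.62 CPM, was no higher than in oligodendrocyte-like nuclei, which had 9.31 and 5.32 CPM in METH 1 and METH 2 and 14.5 and 5.78 CPM in saline 1 and saline 2. It is therefore read as background there, as are Egr1, at 9.29 CPM in Pvalb-like nuclei against 11.6 to 26.5 CPM in oligodendrocyte-like nuclei, and Nr4a2, at 0.219 to 3.34 CPM in interneurons against 0.963 to 4.82 CPM. The Arc means of L5 ET-, L6 IT- and L2/3 IT-like nuclei also lie within the 5.32 to 14.5 CPM of oligodendrocyte-like nuclei. So does that of L5/6 NP-like nuclei, at 10.7 CPM, and these means are limited by that level. Oligodendrocyte-like nuclei had a median of 1170 UMIs, and the subclusters behind the 4 interneuron subtypes 2267 to 4474 UMIs. Homer1 averaged 1949 ± 563 CPM in L6 CT-like and 1627 CPM in L5 ET-like nuclei, and 261 to 302 CPM in the 4 interneuron subtypes. All 4 libraries of every excitatory subtype exceeded those of every interneuron subtype for Homer1.

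**Figure D1:**
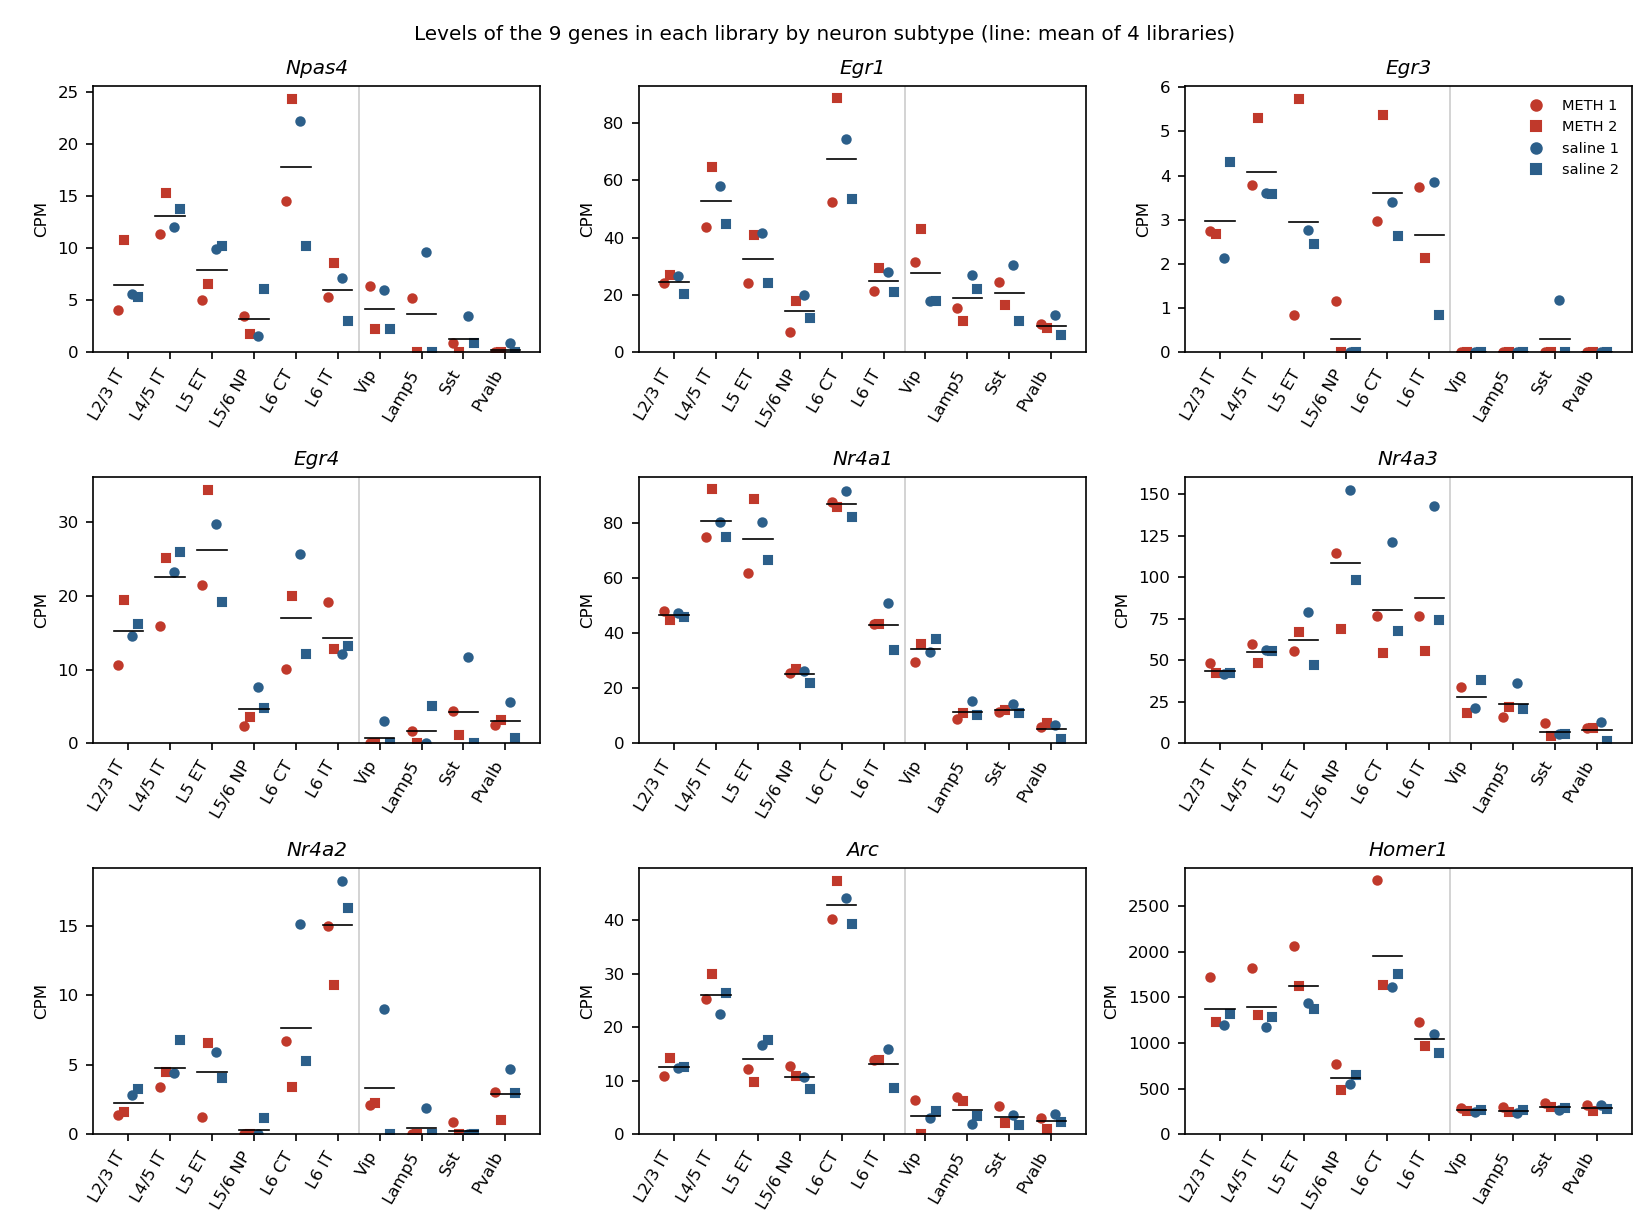
Level of each of the 9 genes (vertical axes, CPM) in 10 neuron subtypes (horizontal axes), with a point for each library, METH in red and saline in blue, and a line at the mean of 4 libraries; a grey line parts excitatory from inhibitory subtypes. L6 CT-like nuclei lead for Arc at a mean of 42.7 CPM, while L6 IT-like nuclei lead for Nr4a2 at 15.0 CPM.

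Several subtypes were made of subclusters, L4/5 IT-, Pvalb-, Sst-, Vip- and Lamp5-like nuclei among them. Levels are given here for those of L2/3 IT-like nuclei only. L2/3 IT-like nuclei formed 2 subclusters, of 2363 nuclei led by Enpp2 and of 2708 nuclei led by Ntf3, although none of the activity genes entered the clustering. Arc stood at 16.1, 22.1, 19.1 and 18.5 CPM in the Enpp2-led subcluster of METH 1, METH 2, saline 1 and saline 2, and at 4.32, 5.00, 6.50 and 6.30 CPM in the Ntf3-led one. Nr4a1 stood at 69.4, 63.5, 74.9 and 67.1 CPM, against 20.02, 22.7, 23.3 and 24.3 CPM. For 8 of the 9 genes all 4 libraries of the Enpp2-led subcluster exceeded all 4 of the other, with mean folds from 1.78 for Homer1 to 4.76 for Npas4. Egr3 was the exception, at 1.14-fold with overlapping libraries. Their median depths were 5250 and 4230 UMIs per nucleus. The division was seen after the values were known and was given no test.

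After 7 days of METH no change was detected in any of the 9 genes, in either neuron class or in any neuron subtype. In excitatory neuron-like nuclei 0 of the 9 were called by edgeR at an adjusted p under 0.05, against 0.0133% of all 15013 genes tested, and 0 by DESeq2; 1, Nr4a2, had an unadjusted p under 0.05. The libraries of 1 gene, again Nr4a2, did not overlap between groups, against 32.5% of all genes tested. The log2 fold changes ran from -0.61 to 0.33, with 6 of 9 above 0, against 50.2% of all genes, and a median of 0.09, beside a median of 0.000755 for all genes. In inhibitory neuron-like nuclei 6 of the 9 had enough UMIs to be tested, and 0 were called by either tool, against 0.0169% of 11835 genes; 4 of the 6 were above 0, against 49.5%, 0 had an unadjusted p under 0.05 and 0 were without overlap, against 32.5%. With 2 libraries per group an exact permutation test of a single value cannot go below p = 0.33.

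Npas4 had 8.58 and 13.3 CPM in excitatory nuclei of METH 1 and METH 2, against 10.5 and 9.55 CPM in saline 1 and saline 2 (log2 fold change 0.15, SE 0.188). Arc had 20.8 and 23.6 CPM, against 20.5 and 21.1 CPM (0.11, SE 0.0959). Egr1 had 35.02 and 49.4 CPM, against 46.1 and 34.2 CPM (0.09, SE 0.242). For all 3 genes the METH libraries overlapped the saline libraries. Nr4a1 had 64.2 and 70.5 CPM in METH 1 and METH 2, against 68.7 and 61.8 CPM in saline 1 and saline 2 (log2 fold change 0.07, SE 0.0762). Nr4a3 had 61.7 and 49.2 CPM, against 69.0 and 55.9 CPM (-0.15, SE 0.146). The remaining Egr members were near 0 too: Egr3 at 0.23 (SE 0.206) and Egr4 at -0.12 (SE 0.182), both log2 fold changes with overlapping libraries.

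Homer1 was high in 1 METH library. It had 1845 and 1278 CPM in excitatory nuclei of METH 1 and METH 2, against 1232 and 1302 CPM in saline 1 and saline 2. METH 1 stood above the other 3 libraries, and METH 2 lay between the saline libraries. The log2 fold change was 0.33 (SE 0.218, adjusted p = 0.999 by edgeR). Without METH 2 it became 0.57 and was called (adjusted p = 3.15e-09 by edgeR); without METH 1 it became 0.03. With 1 METH library left, the spread comes from the 2 saline libraries alone and the lone library is assumed to vary as they do, so this p does not cover the spread between METH libraries. Across the 10 subtypes the METH mean was the higher in 9, and METH 1 was the highest of the 4 libraries in 9. The smallest p was in L5 ET-like nuclei, neurons that project to the brainstem and other subcortical targets, where Homer1 had 2066 and 1628 CPM in METH 1 and METH 2, against 1439 and 1376 CPM in saline 1 and saline 2. There both METH libraries stood above both saline libraries, with a log2 fold change of 0.42 (SE 0.0929, adjusted p = 0.461 by edgeR), ranking 6 of 10533 genes by p. The treatment effect on Homer1 was larger in excitatory than in inhibitory nuclei by 0.24 on the log2 scale (SE 0.0880, adjusted p = 1 in the edgeR interaction test). In that test 0 of 14896 genes were called, and of the members Homer1 had an unadjusted p under 0.05.

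Of the 90 pairs of gene and neuron subtype, 59 had enough UMIs to be tested, and 0 were called by edgeR or by DESeq2; 4 had an unadjusted p under 0.05. Of all genes edgeR called 0.00794% in L2/3 IT-, 0.0149% in L4/5 IT-, 0.00949% in L5 ET-, 0.0859% in L5/6 NP-, 0.00939% in L6 CT- and 0.00991% in L6 IT-like nuclei, and 0.032% in Pvalb-, 0.0111% in Sst-, 0% in Vip- and 0.0134% in Lamp5-like nuclei. In 11 of the 59, or 18.6%, the METH libraries lay on one side of the saline libraries, 6 higher and 5 lower. Of all genes this held for 32.7% in L2/3 IT-, 33.8% in L4/5 IT-, 34.5% in L5 ET-, 33.7% in L5/6 NP-, 33.9% in L6 CT- and 32.8% in L6 IT-like nuclei, and for 33% in Pvalb-, 32.7% in Sst-, 33.7% in Vip- and 33.9% in Lamp5-like nuclei. L5 ET-like nuclei held 3 of them. Besides Homer1, these were Npas4, with 5.07 and 6.56 CPM in METH 1 and METH 2 against 9.91 and 10.2 CPM in saline 1 and saline 2 (log2 fold change -0.81, SE 0.364, adjusted p = 0.933 by edgeR), and Arc, with 12.3 and 9.84 CPM against 16.6 and 17.5 CPM (-0.56, SE 0.270, adjusted p = 0.933). L5 ET-like nuclei made up 4.17% of the excitatory nuclei in METH 2 and 7.10% to 7.51% in the other libraries, and the Npas4 values rest on 12 and 8 UMIs against 25 and 25. Both METH values of Arc lie within the range of oligodendrocyte-like nuclei, read above as background, so its fold change is limited by that level.

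Egr1 lay on opposite sides of saline in 2 interneuron subtypes. In Vip-like nuclei, which inhibit other interneurons, it had 31.7 and 43.0 CPM in METH 1 and METH 2, against 18.0 and 17.8 CPM in saline 1 and saline 2 (log2 fold change 1.05, SE 0.426, adjusted p = 0.971 by edgeR). In Lamp5-like nuclei it had 15.6 and 10.9 CPM, against 26.9 and 22.2 CPM (-0.87, SE 0.469, adjusted p = 0.930). The groups overlapped in neither subtype, on counts of 6 to 19 UMIs per library, and the difference between the subtypes was not tested. Oligodendrocyte-like nuclei held 11.6 to 26.5 CPM of Egr1, a range that holds both saline values in Vip-like nuclei, and all but the METH 2 and saline 1 values in Lamp5-like nuclei, which lie 1 below and 1 above it. Values in both subtypes thus reach the background level, and neither fold change is read as a difference. The remaining pairs without overlap were Egr3 and Homer1 in L4/5 IT-like nuclei (0.36, SE 0.256, and 0.37, SE 0.193), Nr4a3 in L2/3 IT-like nuclei (0.13, SE 0.109), Homer1 in Sst-like nuclei (0.21, SE 0.103) and Nr4a2 in L2/3 IT- and L6 IT-like nuclei, described next.

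Single libraries decided several subtype values. Each such fit leaves 1 group with a single library, which is assumed to vary like the 2 libraries of the other group, so a call made this way does not cover the spread within the reduced group. Leaving out METH 2, Homer1 was called in L2/3 IT-, L4/5 IT-, L5 ET- and L6 CT-like nuclei, at log2 fold changes of 0.48, 0.59, 0.58 and 0.75. Leaving out saline 1, it was called in L5 ET-, L6 CT- and L6 IT-like nuclei, at 0.45, 0.35 and 0.33, and leaving out saline 2, in L5 ET- and L6 CT-like nuclei, at 0.39 and 0.49. Leaving out METH 1, no member was called in any subtype. Nr4a3, which was highest in saline 1 in both L6 subtypes, was called lower in METH only without saline 2, at -0.83 in L6 CT-like (adjusted p = 0.00102) and -1.10 in L6 IT-like nuclei (adjusted p = 1.54e-07), both by edgeR. Saline 1 was then the only saline library.

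Glial and vascular types were tested too, in 19 pairs of member and type with enough UMIs. By edgeR 0 were called, 0 had an unadjusted p under 0.05 and 0 had groups without overlap. Of all genes 0.00991% were called in astrocyte-, 0.00985% in oligodendrocyte precursor-, 0.0335% in oligodendrocyte- and 0% in microglia- and vascular-like nuclei. The groups did not overlap for 30.5%, 32.6%, 32.8%, 31.8% and 29.5% of all genes in these 5 types, in the same order.

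**Figure D2:**
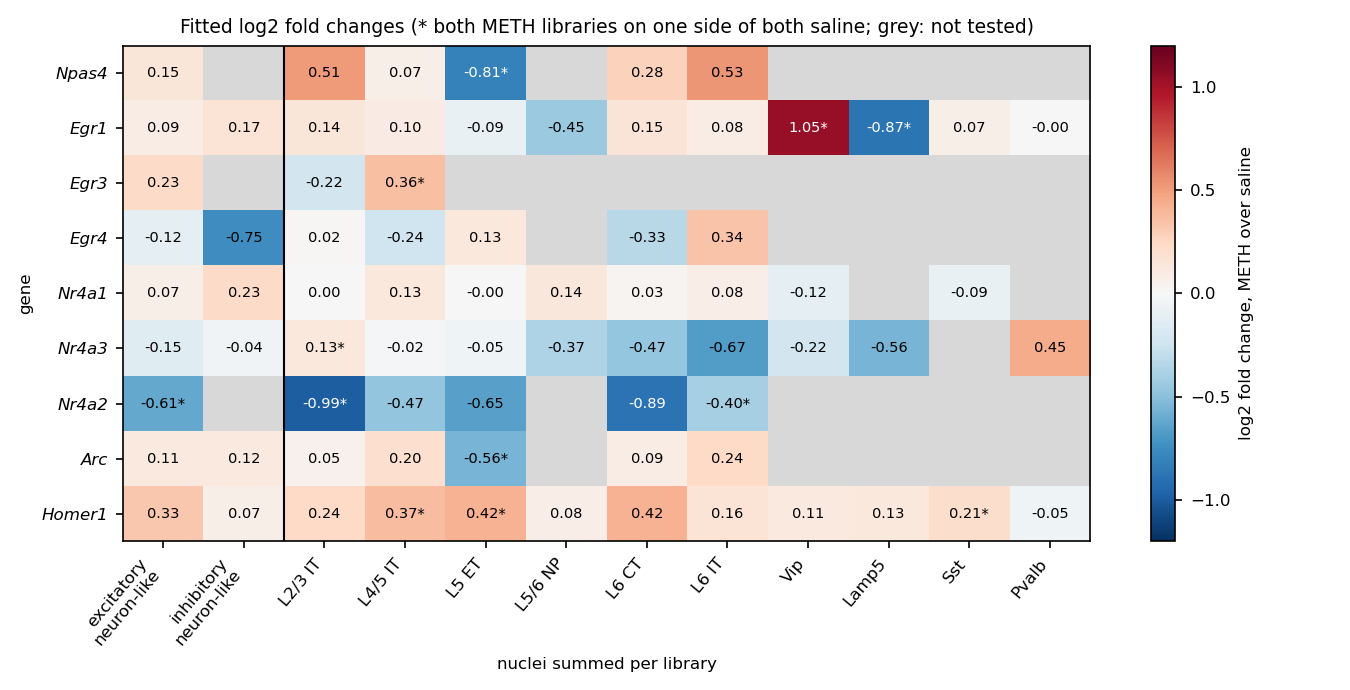
Fitted log2 fold changes, METH over saline, of the 9 genes (rows) in both neuron classes and 10 subtypes (columns), by edgeR; red is higher and blue lower in METH, an asterisk marks METH libraries on one side of both saline libraries, and grey was not tested. No cell was called; Nr4a2 is below 0 in all 5 excitatory subtypes where it was tested.

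L6 IT-like nuclei carried 8.01% of all excitatory UMIs but 23.99% of the Nr4a2 UMIs. Nr4a3 was also over-represented there, with 11.6% of its UMIs, while the other 7 genes placed 4.47% to 6.12% of theirs in L6 IT-like nuclei. Over the 10 subtypes the level of Nr4a2 correlated with those of the other 8 genes at Pearson r of 0.47 to 0.61 (log2 of CPM + 10). Nr4a3 correlated with the others at 0.46 to 0.74, its lowest value being with Egr1, against 0.67 to 0.96 for the 21 pairs among the 7 genes other than Nr4a2 and Nr4a3. The 10 subtypes share the same 4 libraries, so these r describe them and carry no p. Astrocyte-like nuclei, a glial type, held Nr4a2 as well, at 16.8 and 11.3 CPM in METH 1 and METH 2 and 12.6 and 20.5 CPM in saline 1 and saline 2, a range that overlaps the L6 IT-like values. Those were 14.9 and 10.7 CPM in METH 1 and METH 2, against 18.2 and 16.3 CPM in saline 1 and saline 2.

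In excitatory nuclei as a whole Nr4a2 had 3.85 and 3.96 CPM in METH 1 and METH 2, against 6.03 and 6.09 CPM in saline 1 and saline 2. Both METH libraries stood below both saline libraries, on 92 and 91 UMIs against 158 and 155. The log2 fold change was -0.61 (SE 0.162, unadjusted p = 0.00271, adjusted p = 0.999 by edgeR), ranking 37 of 15013 genes by p, and the difference is not called. The make-up of the class was measured beside it. L6 IT-like nuclei made up 7.46% and 7.34% of the excitatory nuclei in METH 1 and METH 2, against 6.61% and 8.45% in saline 1 and saline 2, and these shares overlapped. With the 6 subtypes given equal shares in every library, Nr4a2 averaged 3.97 ± 0.204 CPM in METH and 6.10 ± 0.148 CPM in saline (SD, n = 2 each), a log2 ratio of -0.62, against -0.63 with the shares as measured.

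The METH mean of Nr4a2 was lower in all 5 excitatory subtypes tested. In L2/3 IT-like nuclei Nr4a2 had 1.37 and 1.605 CPM in METH 1 and METH 2, against 2.80 and 3.27 CPM in saline 1 and saline 2 (log2 fold change -0.99, SE 0.390, unadjusted p = 0.0216, adjusted p = 0.999 by edgeR), on 8 to 22 UMIs per library. All 4 of these values lie within the 0.963 to 4.82 CPM of oligodendrocyte-like nuclei, taken above as background. So do the METH values of L4/5 IT-like nuclei, 3.41 and 4.49 CPM, and of the whole excitatory class, so these fold changes are limited by that level. L6 IT-like nuclei gave -0.40 (SE 0.290), L4/5 IT-like -0.47 (SE 0.265), L5 ET-like -0.65 (SE 0.621) and L6 CT-like nuclei -0.89 (SE 0.490). The libraries overlapped in the last 3 of these, and leaving out METH 1 in L5 ET-like nuclei or saline 1 in L6 CT-like nuclei turned the direction, to 0.40 and 0.01. The treatment effect in L6 IT-like nuclei minus that in the other excitatory nuclei was 0.27 (SE 0.345, adjusted p = 1 by edgeR) and was not called. In this test 0 of 14330 genes were called, and of the members Nr4a3, at -0.57 (SE 0.190), had an unadjusted p under 0.05.

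Finer clustering, at Leiden resolution 2, split excitatory nuclei into 23 subclusters and no longer gave the L6 IT-like name. The METH mean of Nr4a2 was below the saline mean in 17 of the 23, and both METH libraries were below both saline libraries in 8. In 5 of these 8 each METH library held 0 or 1 UMI, against 1 to 3 in each saline library. The minimum of 50 nuclei in every library was not applied to these counts. Of the 8, an L2/3 IT-like subcluster had 50 and 28 nuclei in METH 1 and METH 2, and 786 and 22 in saline 1 and saline 2. The share of all genes without overlap was not computed in these subclusters; in the whole class it was 32.5%, in either direction. A group with claustrum or L6 IT Car3 markers, of 521 nuclei, went the other way, at 18.8 and 25.7 CPM in METH 1 and METH 2 against 16.2 and 2.05 CPM in saline 1 and saline 2, the last on 1 UMI. A group of 374 L2/3 IT-like nuclei stood at 9.10 and 10.8 CPM, against 37.6 and 23.4 CPM, on 6 and 7 UMIs against 15 and 10.

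Astrocyte and inhibitory markers in the excitatory nuclei overlapped between the groups. The 7 astrocyte markers summed to 251 and 285 CPM in METH 1 and METH 2 and to 292 and 252 CPM in saline 1 and saline 2. The 6 inhibitory markers summed to 23.7 and 16.2 CPM, and 26.0 and 11.48 CPM, and mitochondrial genes to 623 and 400 CPM, and 621 and 527 CPM. None of the astrocyte or inhibitory markers was at 0. Their part in the Nr4a2 difference was not tested.

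**Figure D3:**
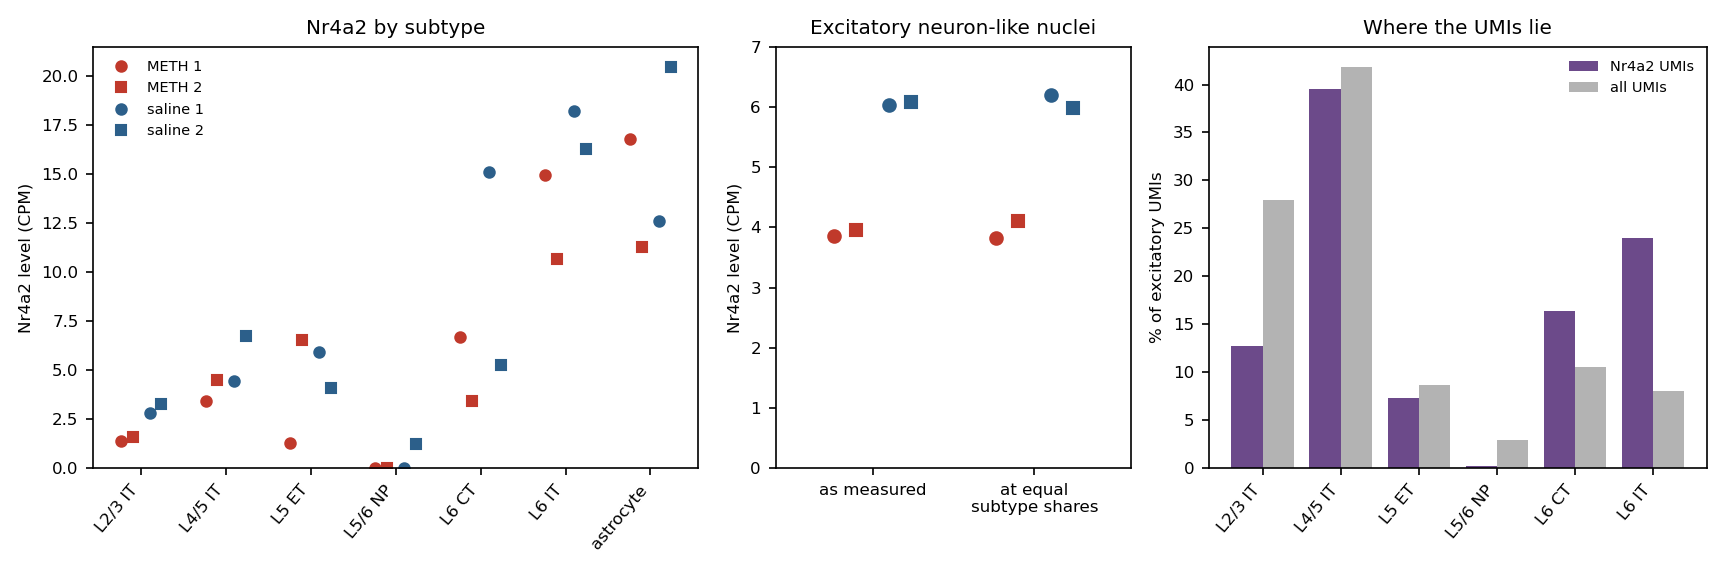
Nr4a2 by library (points, METH in red left of saline in blue): left, level in CPM in 6 excitatory subtypes and astrocyte-like nuclei; middle, level in all excitatory neuron-like nuclei as measured and with subtype shares made equal; right, percent of the excitatory Nr4a2 UMIs (purple) and of all excitatory UMIs (grey) in each subtype, all libraries together. METH stays at 3.97 against 6.10 CPM in saline at equal shares, and L6 IT-like nuclei hold 23.99% of the Nr4a2 UMIs.

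A summed level cannot tell many nuclei with a transcript from a few nuclei with many, so co-occurrence within nuclei was counted after each nucleus was thinned to 1000 UMIs. Nuclei with UMIs of 2 or more of the 7 genes other than Nr4a2 and Homer1 made up 2.77% and 3.50% of the excitatory nuclei in METH 1 and METH 2, against 3.79% and 3.05% in saline 1 and saline 2. The groups overlapped. They averaged 3.14% ± 0.517 in METH and 3.42% ± 0.522 in saline (SD, n = 2 each; two-sided exact permutation p = 0.667). Thinning left out 6 and 4 shallower nuclei in METH and 182 and 5 in saline; unthinned shares were 19.3% and 25.0%, against 13.6% and 20.4%. In oligodendrocyte-like nuclei the thinned share was 0 of 671 and 0 of 837 nuclei in METH, and 0 of 139 and 0 of 553 in saline. By the limit of 3 nuclei, and for counting error only, these zeros allow shares of up to 0.447% and 0.358%, and 2.16% and 0.543%.

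These genes shared nuclei more often than their separate frequencies give. The product of the single-gene shares gives 1.31% and 1.69% in METH, and 1.79% and 1.29% in saline, for 2 or more genes, so the observed shares were 2.11, 2.07, 2.11 and 2.37 times that product. Of the 28 pairs among the 8 genes without Homer1, 26 were found together above the product, and of the 14 pairs with an expected count of at least 5 nuclei, 13 were above it in all 4 libraries, at 1.92 to 5.46 times. Nr4a1 and Nr4a3 shared 182 of 18559 nuclei, against 58.8 from the product, and Arc and Egr4 shared 41 against 7.51. Depth was equal in all thinned nuclei, while subtype was not, and subtypes with high levels of both genes raise such a ratio. Within single subtypes Nr4a1 and Nr4a3 were at 5.51 times the product in L2/3 IT-like, 4.93 in L6 IT-like and 2.60 in L4/5 IT-like nuclei. Values of L5 ET- and L6 CT-like nuclei are not given here. L2/3 IT-like nuclei still mix levels of both genes, since Nr4a1 was 3.05-fold and Nr4a3 3.15-fold higher in the Enpp2-led than in the Ntf3-led subcluster. L5/6 NP-like nuclei, highest for Nr4a3, held no nucleus with both, against 1.59 from the product.

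Nr4a2 was found in 90 thinned excitatory nuclei, of which 34 also held Nr4a3, against 4.72 from the product, a ratio of 7.21 that ran from 3.91 to 11.2 over the 4 libraries. Within L6 IT-like nuclei the count was 8 against 1.27, and within L4/5 IT-like nuclei 13 against 1.89. The share of excitatory nuclei with Nr4a2 was 0.280% and 0.350% in METH 1 and METH 2, against 0.594% and 0.588% in saline 1 and saline 2 (two-sided exact permutation p = 0.33, the smallest possible). Both METH shares were the lower. The counts are 11 and 11 nuclei against 47 and 21. Oligodendrocyte-like nuclei thinned alike held Nr4a2 in 2 of 671 and 1 of 837 nuclei in METH, 0.298% and 0.119%, and in 0 of 139 and 0 of 553 in saline. The excitatory share in METH 1 was thus no higher than that background share, and the shares are given as values only.

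UMIs of some members were piled into few nuclei. After thinning, 37.9% of the Nr4a3 UMIs in excitatory nuclei lay in nuclei with 2 or more, and the variance over nuclei was 1.57 times the mean. The same shares were 21.3% for Nr4a1, 20.8% for Nr4a2 and 20.4% for Egr4, 12.2% for Egr1, 10.2% for Arc and 4.47% for Npas4. No thinned nucleus held more than 1 Egr3 UMI. Nr4a3 had the highest share of the 8 genes other than Homer1, for which it was 79.0%.

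**Figure D4:**
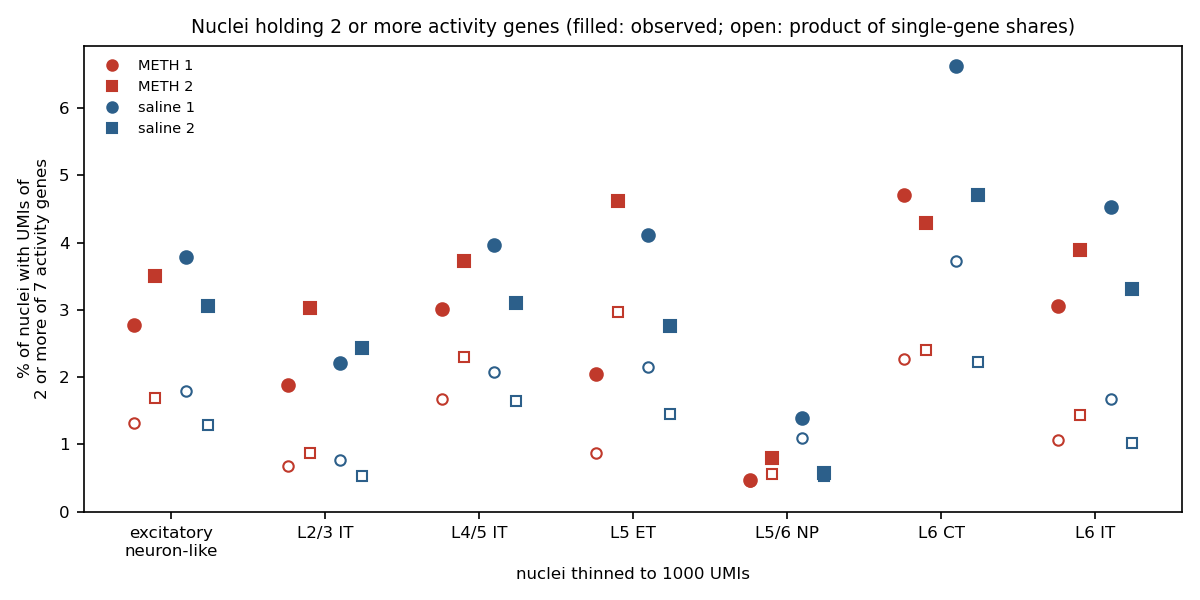
Percent of nuclei with UMIs of 2 or more of 7 activity genes after thinning to 1000 UMIs (vertical axis), in all excitatory neuron-like nuclei and 6 subtypes (horizontal axis); filled points are observed and open points the product of single-gene shares, a point for each library, METH in red left of saline in blue. Observed shares in all excitatory nuclei, 2.77% to 3.79%, lie above their products in every library, while METH and saline overlap.

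The wider pathway gave no called gene either. Of 13 tested genes in a list of other rapid activity-induced genes, 0 were called in excitatory nuclei, 7 were above 0 and 6 below, and the median log2 fold change was 0.13. Dusp1, a phosphatase that ends MAP kinase signalling, was at -0.25 (SE 0.114), and Fosb, an AP-1 subunit that accumulates with repeated stimulants, at 0.34 (SE 0.160, adjusted p = 0.999 for both by edgeR). Of 13 late activity-induced genes 0 were called, 4 were above 0 and 9 below, with a median of -0.03; Scg2, a secretogranin, was at -0.21 (SE 0.110) and Pcsk1, a prohormone-cleaving enzyme, at 0.19 (SE 0.104). The 16 tested genes upstream of the response, kinases and transcription factors, had a median of 0.04 with 10 above 0, and the kinases Camk4 and Camk2a were at 0.13 (SE 0.0696) and 0.09 (SE 0.0550). Among 13 protein partners, with a median of -0.03 and 5 above 0, Homer3, a relative of Homer1, was at -0.88 (SE 0.490) on 5 to 15 UMIs per library, and Itpr1, the calcium-store channel that Homer proteins bind, at 0.09 (SE 0.0564). The groups did not overlap for 5 of the rapid, 8 of the late, 5 of the upstream and 8 of the partner genes, against 32.5% of all genes, and 0 genes of these lists had an unadjusted p under 0.05 by edgeR. The 6 tested stress and heat-shock genes had a median of 0.01, with Gadd45a at -0.42 (SE 0.230) and Hspa8 at 0.11 (SE 0.0937).

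The genes whose levels over the 10 subtypes most resembled each member were then listed, by Pearson r of log2(CPM + 10) among 8365 genes with a mean of at least 10 CPM. Npas4, Egr3 and Nr4a2 were under that mean and so were not among the genes compared; of these, Npas4 stood at r = 0.95 with both Egr1 and Arc, and Egr3 at 0.96 with Egr4. Arc was nearest to Pxn (r = 0.97), which encodes a focal adhesion protein, followed by R3hdm2 (0.96) and Stk40 (0.93). Npas4 was nearest to Per2 (0.95), a clock gene, followed by Egr1 (0.95) and Arc (0.95), both members. Of the genes compared, Per2 was also nearest to Egr1 (0.92), followed by Lurap1 (0.89) and Junb (0.88), an AP-1 subunit on the list of rapid genes. Nr4a1 was nearest to Mnt (0.97), Junb (0.96) and Tmod1 (0.95), and Egr4 to Pde4a (0.95), Ralyl (0.95) and Homer1 (0.95). Egr3 was nearest to Tet3 (0.98), R3hdm1 (0.96) and Inka2 (0.96), and Homer1 to Kpna1 (0.98), R3hdm1 (0.97) and Dnajb5 (0.96). Nr4a3 was nearest to Foxp1 (0.96), a transcription factor of deep-layer neurons, followed by Arpp21 (0.94) and Nck2 (0.94). For Nr4a2 the nearest were Dop1b (0.87), Syt12 (0.85) and Prkab2 (0.84). No member was among them, which also held for Arc, Egr1, Egr3, Nr4a1, Nr4a3 and Homer1.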

How the data were processed

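The authors deposited UMI counts per gene and barcode for 4 nuclear RNA libraries of rat orbitofrontal cortex (10x Genomics 3' chemistry), with no normalization; Cell Ranger 7.0.0 made them, per the file headers. The submitters' processing notes list hg38, a human build, but the files hold rat gene identifiers only. Neither the rat build nor the treatment of intronic reads is given in the sources used here.

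Barcodes with under 500 genes, over 5% mitochondrial UMIs or the highest Scrublet scores (0.8% per 1000 barcodes) were left out. Nuclei were clustered with Scanpy 1.11.5 (3000 variable genes without the activity genes, 30 components, 20 neighbours, Leiden resolution 1) and named from marker lists, by a score of at least 0.4 set after seeing the data; names are therefore rebuilt. The library is the replicate, so UMIs were summed within it for units with at least 50 nuclei in every library. The 2 METH libraries were set against the 2 saline libraries by edgeR 4.0.16 (two-sided quasi-likelihood F test, robust, TMM, filterByExpr; R 4.3.3), with Benjamini-Hochberg adjustment over all genes tested in a unit, and a call at an adjusted p under 0.05; DESeq2 1.42.0, other filters and clusterings and each library left out were alternatives. The SE is the log2 fold change over the square root of F. The scripts were tested on simulated counts.

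The genes, the gene lists, the markers and the tests were chosen with earlier results of these data known. The text names all 9 members in every unit tested; of the other lists, genes called or otherwise the 2 with the smallest p in excitatory nuclei; and the 3 genes most like each member. Sampling of molecules limits the low genes: Nr4a2, Egr3 and Npas4 rest on 665, 348 and 1096 UMIs in all nuclei kept. The labels give replicate numbers but do not say that these pair the libraries, so no pairing was used in the main test.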

Additional observations from a re-analysis of the deposited data

Results flagged for a closer look

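Egr1 lay on opposite sides of saline in 2 interneuron subtypes, in neither of which it was called. Both METH libraries stood above both saline libraries in Vip-like nuclei and below both in Lamp5-like nuclei, and the log2 fold change in Vip-like minus that in Lamp5-like nuclei was 1.92. The difference itself was not tested. The Vip-like values rest on 15 and 19 UMIs in METH 1 and METH 2, against 6 and 8 in saline 1 and saline 2, and the Lamp5-like values on 9 and 7, against 14 and 13. Oligodendrocyte-like nuclei held 11.6 to 26.5 CPM of Egr1, a range that holds both saline values in Vip-like nuclei.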

How the results depend on the processing

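No member was called in excitatory or inhibitory neuron-like nuclei under DESeq2, RLE factors, no filter, no robust fit, the replicate block, doublets kept, at least 1000 genes per nucleus, Leiden resolution 2, activity genes kept for clustering, equal numbers of nuclei, or the mixed subclusters put back, an alternative added after seeing the data. With one library left out, 0 to 1 members were called in excitatory nuclei (Homer1 without METH 2; its adjusted p otherwise lay between 0.975 and 1.00) and 0 to 4 over the subtypes. The same-numbered libraries did not deviate together (correlation -0.0375 in excitatory and -0.0253 in inhibitory nuclei). The labels do not say whether they were handled together, and these correlations do not settle it. The replicate block gave 7 genes called in excitatory and 14 in inhibitory nuclei, against 2 and 2. In excitatory nuclei DESeq2 called 4 genes, no filter on low counts 9, and a fit that was not robust, doublets kept, equal numbers of nuclei and the mixed subclusters put back 1 each; one library left out gave 2 (without saline 1) to 130 (without METH 1). In inhibitory nuclei DESeq2 called 1 and no filter 10, and one library left out gave 9 (without METH 2) to 25 (without METH 1). The cause was not tested.

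Of 343 log2 fold changes of 35 results under alternatives, 303 kept their direction and side of the threshold, 12 passed it, all with a library left out, so that the spread came from 1 group alone, and 28 turned, 20 of them with a library left out. With libraries left out, these excitatory values turned: Egr1 from -0.17 to 0.32, Egr4 from -0.44 to 0.15, Npas4 from -0.19 to 0.43, Nr4a1 from -0.0089 to 0.14 and Nr4a3 from -0.33 to 0.012. So did these inhibitory values: Arc from -0.31 to 0.39, Egr1 from -0.21 to 0.59, Egr4 from -1.37 to 0.13, Homer1 from -0.058 to 0.19, Nr4a1 from -0.11 to 0.56 and Nr4a3 from -0.31 to 0.24. In the subtypes, Homer1 in L2/3 IT-like nuclei ran from -0.037 to 0.48, Homer1 in L6 CT-like nuclei ran from -0.017 to 0.75, Homer1 in L6 IT-like nuclei ran from -0.013 to 0.33, Nr4a2 in L5 ET-like nuclei ran from -1.92 to 0.40 and Nr4a2 in L6 CT-like nuclei ran from -1.50 to 0.0063. Other inhibitory reversals were Arc with doublets kept (-0.21), at resolution 2 (-0.0902), with equal numbers of nuclei (-0.0649) and with the mixed subclusters put back (-0.14), Egr1 (-0.0212), Nr4a1 (-0.0551) and Homer1 (-0.13) with doublets kept, and Nr4a3 with at least 1000 genes (0.0029). Nr4a2 in excitatory nuclei stayed between -0.86 and -0.50 over 15 alternatives, with adjusted p from 0.332 to 1.00.

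The difference in Nr4a2 at equal subtype shares, -2.13 CPM, was -2.30 to -1.99 CPM with a library left out and -1.17 CPM at Leiden resolution 2, where 5 subclusters had no name and only named subtypes entered; with all subclusters, an alternative added after seeing the data, it was -2.01 CPM at resolution 1 and -2.21 CPM at resolution 2. The treatment effect on Nr4a2 in the named subtype with its highest mean level, minus the rest, was -0.0770 to 0.607 with a library left out. At resolution 2 it was 1.80 (adjusted p = 0.656 by edgeR), where that subtype was the claustrum or L6 IT Car3-like group. Unnamed subclusters fell into the rest there, including 1 at a mean of 23.1 CPM, against 15.7 CPM in the claustrum-like group. The value at resolution 2 is thus another contrast than that of L6 IT-like nuclei. The difference in the share of excitatory nuclei with 2 or more activity genes was 5.15 percentage points unthinned and 0.479 when thinned to 2000 UMIs, against -0.285 as reported, and -0.654 to 0.0844 with a library left out. Counts of under 30 UMIs per library limit Npas4, Egr3 and Nr4a2 in most subtypes.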

Other observations

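An unnamed inhibitory subcluster of 91 nuclei, led by Ltbp1, Corin and Gpc4, held Nr4a2 at 37.6 and 70.5 CPM in METH 1 and METH 2 and 51.8 and 38.0 CPM in saline 1 and saline 2, on 3, 5, 3 and 2 UMIs. Egr1, Egr3, Egr4 and Npas4 had no UMI there in any library, and Nr4a1 had 1 in all. This subcluster was chosen with its values in view, and no test is given.

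Glial and vascular nuclei held some members as well. Nr4a1 stood at 41.9 and 29.3 CPM in oligodendrocyte precursor-like nuclei of METH 1 and METH 2 and at 32.4 and 33.4 CPM in saline 1 and saline 2, and at 36.2 and 29.0 CPM, and 30.7 and 21.3 CPM, in astrocyte-like nuclei. In oligodendrocyte-like nuclei it was at 8.54 and 11.3 CPM, and 12.1 and 3.85 CPM. Vascular-like nuclei held Homer1 at 1025 and 552 CPM in METH 1 and METH 2 and 873 and 709 CPM in saline 1 and saline 2, against 102 to 174 CPM in oligodendrocyte-like nuclei.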
